A study of Gallus gallus with 6 samples.

Results

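The genes described here encode the subunits of the mitochondrial respiratory chain and ATP synthase, with cytochrome c and a few proteins that help to assemble complex I. They were taken by gene symbol from the array's annotation (symbols beginning with NDUFA, NDUFB, NDUFC, NDUFS, NDUFV, UQCR, COX4 to COX8 or ATP5, the SDH subunits, CYC1 and CYCS). The rule itself uses no measured values, but it was chosen with earlier results of these data known. This gave 75 genes of the 13008 named on the array, measured by 135 probe sets. The study grafted lateral head mesoderm of stage HH6 chick embryos into the area opaca (the outer, extraembryonic zone) of hosts at stage HH4-, and asked which transcripts differ while the mesoderm induces sensory placode progenitors. The induced group is the epiblast that had lain under the graft for 12 hours, collected after the graft was removed, and the control group is the area opaca of the opposite side of the host, which carried no graft there; the labels name no germ layer for the control. Each group has 3 samples, numbered as biological repeats, with 1 Affymetrix array each. No source used here gives the strain or the number of embryos per sample, and p-values measure only the spread between these samples, which may be technical.

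The respiratory chain passes electrons from NADH and succinate to oxygen through protein complexes of the inner mitochondrial membrane, and ATP synthase uses the resulting proton gradient to make ATP. Complex I oxidises NADH, complex II oxidises succinate, complex III hands the electrons to the small soluble carrier cytochrome c, and complex IV reduces oxygen. Nearly all subunits are encoded in the nucleus and imported, and the remaining ones, encoded in mitochondrial DNA, were not analysed here. Early embryos rely on both glycolysis and respiration, and the balance between these differs between embryonic tissues.

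No respiratory chain gene passed the test between induced epiblast and control area opaca. Of the 75 genes, 73 had a probe set bright enough to be tested, and 0 of them passed an adjusted p of 0.05 in limma, with 0 also at an unadjusted p under 0.05. Over all 10118 genes tested, 38 passed after adjustment (0.376%) and 1177 had an unadjusted p under 0.05 (11.6%). With so low a share after adjustment, 0 of 73 passing says little about these genes. The unadjusted count of respiratory chain genes moved with the setting. With the repeat number as a block in limma it was 3 (4.11%), against 14.3% of all genes. Taken probe set by probe set, 0 of their 120 kept probe sets passed after adjustment, against 22 of all 22614 (0.0973%). An unadjusted p under 0.05 was reached by 1 of the 120 (0.833%), against 2206 of all (9.76%). The lowest adjusted p of a respiratory chain gene was 0.44. All values are log2(signal + 16) after the arrays were brought to a common distribution, on which scale the median difference, induced minus control, was 0.0069 over these 73 genes and 0.0163 over all genes tested. Of the 73, 42 lay above the controls and 31 below, and of all genes 5381 and 4737. This split moved with the scaling: 19 lay above and 54 below with each array only centred on its median, and 16 and 57 without normalization, with 0 genes called in either.

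A p above the threshold does not show that levels were equal, so the intervals are given as well. The 95% interval of the difference lay wholly between -0.5 and 0.5 (a change of less than 1.41-fold either way) for 45 of the 73 genes, which is 61.6%, against 30.1% of all genes tested. It lay between -1 and 1 for 71 of them, or 97.3%, against 89.2% of all genes. These counts rest on the number added to the signal before the log and on the normalization of the arrays. With 1 added, 42 of the 73 intervals lay within 0.5, against 18.2% of all genes, and 66 within 1, against 62.2%. With 64 added, 62 lay within 0.5, against 71.6% of all genes, and 72 within 1, against 96.4%. The limit of 1.41-fold applies to the signal plus the added number, not to the signal alone. With median centring 0 of the 73 intervals lay within 0.5, against 7.27% of all genes, and 61 within 1, against 73.8%. Without normalization 0 lay within 0.5, against 0% of all genes, and 3 within 1, against 24.2%. With probe sets that can match several transcripts left out, 21 of 53 lay within 0.5, against 28% of all genes. In the main fit the exceptions to the wider limit were NDUFA6, with an interval from -0.47 to 1.06, and ATP5J2, with one from -1.28 to 0.56. With the repeat number as a block 53 lay within 0.5, against 38.8% of all genes, and all 73 within 1, against 90.9%. The median size of the difference was 0.0695 for these genes and 0.158 for all genes, and the largest were 0.44 for NDUFS4 and 3.11 among all genes. Other genes between the 10th and 90th percentile of these genes' levels (6.05 to 10.97, n = 5946) had a median size of 0.153, and 32.8% of them had an interval within 0.5. The 73 genes themselves run from 4.94 to 11.59, with 8 below and 8 above those percentiles and a median level of 9.31 against 8.01 for the others, so that the comparison is not matched on level. Every induced array lay above every control array for 1 of the 73 genes (1.37%, against 9.13% of all genes), which was ATP5S, and below for 1 (1.37%, against 7.42%), which was CYCS.

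**Figure D1:**
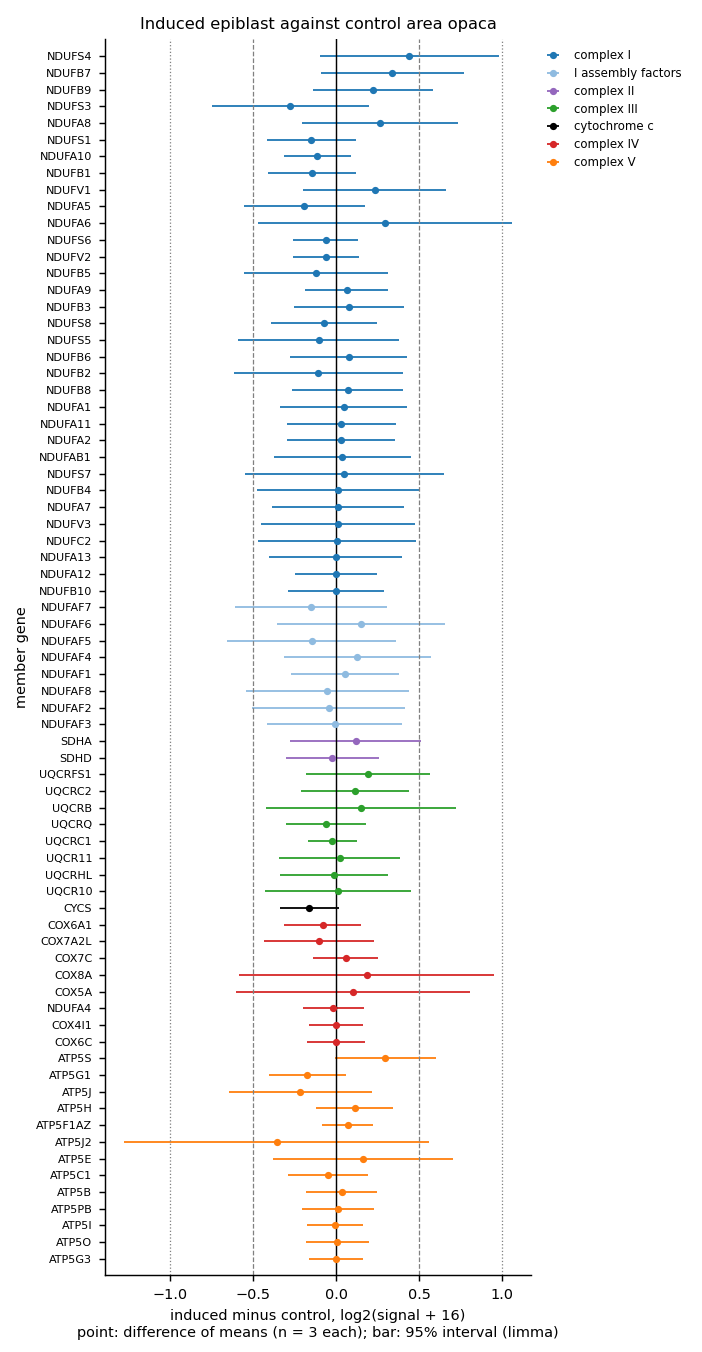
Difference between induced and control samples on the log2(signal + 16) scale for each of the 73 genes tested, grouped by complex, with the gene's brightest probe set; points are differences of means (n = 3 each) and bars are 95% intervals from limma. All 73 intervals include 0, and dashed and dotted lines mark 0.5 and 1 in either direction.

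The labelled tissue and its neighbours were checked with marker lists before the complexes were read. Epithelial markers of the epiblast were bright on every array before normalization, EPCAM with 2231 to 3904 signal units and CDH1 with 1159 to 3098. Of 20 ectoderm markers found on the array (of 23 listed), 14 had at least 16 unnormalized units on all arrays and 1 was under 16 on all. That list had a median difference of 0.20 over 19 tested genes, 0 of which passed. Blood and endothelium genes had a median difference of -0.95 over 21 genes tested, of which 3 fell (TAL1 with -1.74, KDR with -1.84 and LMO2 with -2.18, limma). Summed over the list after normalization, control signals ran from 4585 to 4946 units and induced ones from 1327 to 2763, with no overlap. Before normalization 11 of the 23 genes found on the array (of 30 listed) had at least 16 units on all arrays and 0 were under 16 on all. Listed names were also matched by synonym, which brought ALAS1 into this list and KRT24 into the ectoderm list. Yolk sac endoderm and hypoblast genes had a median of -0.73 over 21 tested, 0 of which passed. Their control sums ran from 4669 to 10370 and their induced sums from 2885 to 3624, also with no overlap. Of 25 on the array (of 27 listed), 4 were under 16 units on all arrays. Mesoderm genes had a median of 0.02 over 13 tested, 2 of which passed (ISL1 with 2.79 and NKX2-5 with 1.90). Their control sums of 367 (control 2) to 1773 overlapped the induced sums of 1749 to 2564. Of 21 on the array (of 22 listed), 7 were under 16 units throughout. Whether the 2 rises mark mesoderm cells was not tested. Over all genes tested 0.376% passed. An unadjusted p under 0.05 (limma) was reached by 13 of 21 blood genes (61.9%) and 12 of 21 yolk sac genes (57.1%), all lower. It was reached by 6 of 19 ectoderm genes (31.6%) and 3 of 13 mesoderm genes (23.1%), against 11.6% of all genes. The part of these markers' tissues in the values of respiratory chain genes was not tested. In such bulk tissue, fewer cells of a type and less RNA per cell cannot be told apart.

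The median difference of each complex was near 0, and its sign was not stable. When single arrays were left out or the processing was altered, it ran from -0.08 to 0.09 for complex I, -0.11 to 0.11 for its assembly factors, -0.06 to 0.13 for complex II, -0.09 to 0.12 for complex III, -0.12 to 0.10 for complex IV and -0.11 to 0.08 for complex V.

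Complex I is the largest complex of the chain. Of its 33 subunit genes tested, 21 lay above the controls and 12 below, with a median difference of 0.0104 and a range from -0.28 to 0.44. Its nuclear-encoded core subunits, which carry the flavin and the iron-sulphur clusters, had a median of -0.07 over 6 genes (NDUFS1, NDUFS3, NDUFS7, NDUFS8, NDUFV1 and NDUFV2), and the 27 accessory subunits, which surround and stabilise the core, one of 0.0135. With all arrays the largest difference was that of NDUFS4, an accessory subunit needed for a stable NADH-oxidising arm. It read 7.70, 8.07 and 7.35 in the controls (in this and later sentences in the order of samples 1 to 3) and 7.75, 8.46 and 8.23 in the induced samples. The difference was 0.44 (SE 0.242, limma adjusted p = 0.546), and its 95% interval ran from -0.10 to 0.98. The groups overlapped, since control 2 was above induced 1, and its dim probe set gave -0.04. Its value ran from 0.26 without control 3 to 0.63 without induced 1 and was 0.20 as the mean of its probe sets, and the largest difference was that of NDUFA6 without control 1 (0.66) and of ATP5J2 without induced 1 (0.84). NDUFB7, an accessory subunit of the membrane arm, read 6.16, 6.36 and 6.17 in the controls and 6.35, 6.59 and 6.76 in the induced samples, a difference of 0.34 (SE 0.193, adjusted p = 0.565). Control 2 and induced 1 were nearly level, so that these groups overlapped as well. NDUFB9, another membrane arm subunit, read 8.39, 8.01 and 8.18 against 8.47, 8.42 and 8.35, a difference of 0.22 (SE 0.163, adjusted p = 0.677). The other 30 differed by -0.28 (NDUFS3, a core subunit) to 0.29 (NDUFA6, an accessory subunit).

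The symbol rule also takes the NDUFAF genes, whose products help to build complex I and are not part of the finished enzyme. All 8 were tested, at a median level of 6.30. Of these, 3 lay above the controls and 5 below, with differences from -0.15 for NDUFAF7 to 0.15 for NDUFAF6 and a median of -0.03. Being dimmer they were measured less precisely, with a median half-width of the 95% interval of 0.46 against 0.35 over all 73 genes.

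Complex II, which links the citrate cycle to the chain, was represented by SDHA, the flavoprotein that oxidises succinate, and SDHD, a membrane anchor. SDHA read 9.24, 8.66 and 8.78 in the controls and 9.17, 8.99 and 8.87 in the induced samples, a difference of 0.12 (SE 0.178, adjusted p = 0.878). SDHD read 9.12, 9.24 and 9.09 against 9.17, 9.11 and 9.10, a difference of -0.02 (SE 0.125, adjusted p = 0.973). Both pairs of groups overlapped. SDHD's other kept probe set, with at most 20.9 units, gave -0.23. SDHA had 0.0034 without control 2 and 0.29 without control 1. SDHB and SDHC, as well as CYC1 of complex III, had no probe set with a single matching symbol here and were not analysed here.

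The 8 genes tested for complex III had differences of -0.06 to 0.19, with 5 above the controls and 3 below. UQCRFS1, the Rieske iron-sulphur protein, read 9.85, 9.35 and 9.30 in the controls and 9.87, 9.69 and 9.51 in the induced samples, a difference of 0.19 (SE 0.168, adjusted p = 0.751). Its groups overlapped because control 1 was nearly as high as induced 1, and its dimmer probe set gave -0.34. UQCRC1 and UQCRC2 are the large core proteins facing the matrix. UQCRC1 read 11.66, 11.56 and 11.57 against 11.65, 11.51 and 11.56, with a narrow interval, from -0.17 to 0.12. UQCRC2 read 9.03, 9.12 and 9.01 against 9.02, 9.07 and 9.42, where induced 3 alone stood higher, and the interval ran from -0.21 to 0.44. UQCRB, a small subunit near the ubiquinone site, read 6.14, 6.24 and 5.89 against 6.73, 6.25 and 5.74, so that the induced samples spanned the controls. UQCRQ read 10.55, 10.27 and 10.38 against 10.46, 10.23 and 10.33. UQCR10 read 10.94, 10.25 and 10.30 against 10.80, 10.51 and 10.20. UQCRHL, annotated as a relative of the hinge protein UQCRH, read 10.92, 10.53 and 10.43 against 10.81, 10.63 and 10.39. In these 3 genes the arrays of repeat 1 were the highest in both groups. UQCR11 was the reverse, with 9.12, 9.14 and 9.28 against 8.87, 9.34 and 9.39.

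Cytochrome c, encoded by CYCS, carries electrons between complexes III and IV and also triggers apoptosis when it leaves the mitochondrion. It read 10.79, 10.90 and 10.82 in the controls and 10.64, 10.68 and 10.72 in the induced samples. All induced arrays lay below all controls. The difference was -0.16 (SE 0.0806, adjusted p = 0.49), with a 95% interval from -0.34 to 0.02, and the gene's other probe set gave -0.12. The value was -0.26 with median centring and -0.28 without normalization, with 0 genes of the chain called in either, and its unadjusted p was under 0.05 only with the repeat number as a block (adjusted p = 0.34, limma).

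For complex IV, 8 genes were tested besides COX7B, which was under the limit on signal with at most 6.5 units. Their median difference was -3e-04, with 4 above and 4 below. COX4I1, the subunit that takes part in regulation by ATP, hardly varied between arrays, with 11.02, 11.00 and 10.97 in the controls and 10.99, 10.96 and 11.03 in the induced samples (interval -0.16 to 0.16). COX6A1 read 10.69, 10.53 and 10.47 against 10.57, 10.33 and 10.54, a difference of -0.08 (SE 0.104, adjusted p = 0.848), and COX7C, a small membrane subunit, 10.99, 10.74 and 10.81 against 10.94, 10.86 and 10.92, a difference of 0.06. The groups overlapped in each. COX7A2L, which joins complexes III and IV into supercomplexes in mammals, read 9.50, 9.10 and 9.34 against 9.18, 9.07 and 9.37, a difference of -0.10 (SE 0.148, adjusted p = 0.87). NDUFA4, once counted with complex I and now with complex IV, differed by -0.02. COX8A and COX5A varied most. COX8A read 7.97, 6.81 and 6.99 in the controls and 7.98, 7.43 and 6.90 in the induced samples, and COX5A 6.92, 5.63 and 6.04 against 6.54, 6.40 and 5.96. In both genes the arrays of repeat 1 were the highest of their group, and the difference between groups was 0.18 and 0.10.

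ATP synthase, or complex V, was represented by 13 tested genes, 8 above and 5 below the controls, with a median of 0.0069. ATP5S, which the symbol pattern includes although it codes for a coupling factor-like protein rather than a subunit of the rotor or stalk, had the lowest p of all 73 genes. It read 8.71, 8.71 and 8.56 in the controls and 9.01, 8.94 and 8.93 in the induced samples. All induced arrays lay above all controls. The difference was 0.30 (SE 0.136, limma unadjusted p = 0.0537, adjusted p = 0.44), with an interval from -0.01 to 0.60. The unadjusted p of ATP5S was under 0.05 with 1 added in place of 16, without a filter and with one at the 60th percentile. The same held with array weights, with the repeat number as a block and with the mean of each gene's probe sets. It passed after adjustment in none of these. ATP5G1 and ATP5G3 code for subunit c, which forms the rotating ring in the membrane, and in mammals both give the same mature protein from different precursors. ATP5G1 read 10.50, 10.71 and 10.62 against 10.41, 10.30 and 10.59, a difference of -0.17 (SE 0.105, adjusted p = 0.594). ATP5G3 read 11.16, 11.15 and 11.17 against 11.07, 11.19 and 11.22, a difference of 0.0013 with an interval from -0.16 to 0.16. The groups overlapped in both, and ATP5G2, a further gene of subunit c, was under the limit on signal with at most 10.1 units. Of the catalytic head and its central stalk, ATP5F1AZ (the alpha subunit, annotated as the copy on the Z chromosome), ATP5B (beta) and ATP5C1 (gamma) differed by 0.07, 0.03 and -0.05. A W copy of the alpha gene could share its signal. ATP5J, a subunit of the stalk, read 5.63, 5.25 and 5.75 against 5.31, 5.45 and 5.21, a difference of -0.22 (SE 0.193, adjusted p = 0.757) in a dim probe set. Its other kept probe set, with at most 13.7 units, gave 0.15, the mean of both -0.03, and leaving out control 2 or control 3 moved the first to -0.37 or -0.11.

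Several genes were measured more than once. Of 33 genes with more than 1 kept probe set, the probe sets differed by less than 0.3 in 24 genes, and their sign was the same in 15. The widest split was in ATP5J2, a membrane subunit of ATP synthase with 5 kept probe sets. Its brightest one, used above, read 10.07, 8.95 and 9.18 in the controls and 10.01, 8.92 and 8.21 in the induced samples, a difference of -0.36. A dim one, of the kind that can match unrelated genes, read 4.97, 4.79 and 5.07 against 5.67, 5.42 and 6.01. The difference was 0.76 (SE 0.199, limma unadjusted p = 0.00342, adjusted p = 0.22). This was the only kept probe set of these genes with an unadjusted p under 0.05, and its unnormalized signals were 24.7, 8 and 15.5 units against 58.4, 21.8 and 30.8. The other 3 gave -0.12, -0.01 and 0.09. Among the 73 probe sets that stand for genes, 41 are of kinds that can match several transcripts (19 possibly of one gene family, 21 of one gene's variants and 1 of unrelated genes).

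The respiratory chain genes stood higher on the arrays of repeat 1 in both groups. Both arrays of repeat 1 were brighter before normalization, with median signals of 17.7 and 18.35 units against 7.5 to 9.6 on the other arrays, and repeat 1 was singled out after this brightness had been seen. After normalization both still lay above all 4 other arrays for 39 of the 73 respiratory chain genes (53.4%), against 1466 of all genes tested (14.5%). They lay below all 4 for 1 of the 73, UQCR11 (1.37%, against 12.1% of all genes). Among the other genes between the 10th and 90th percentile of their levels the shares were 15.5% and 14.5%. The mean over the 73 genes, taken relative to each gene's mean over the 6 arrays, was 0.17, -0.09 and -0.11 in the controls and 0.12, -0.04 and -0.06 in the induced samples. The groups overlapped, with repeat 1 highest in each, and induced minus control was 0.02 against an SD of 0.16 among the controls and 0.10 among the induced samples (n = 3 each). Over all genes tested the same mean ran from -0.02 to 0.02.

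**Figure D2:**
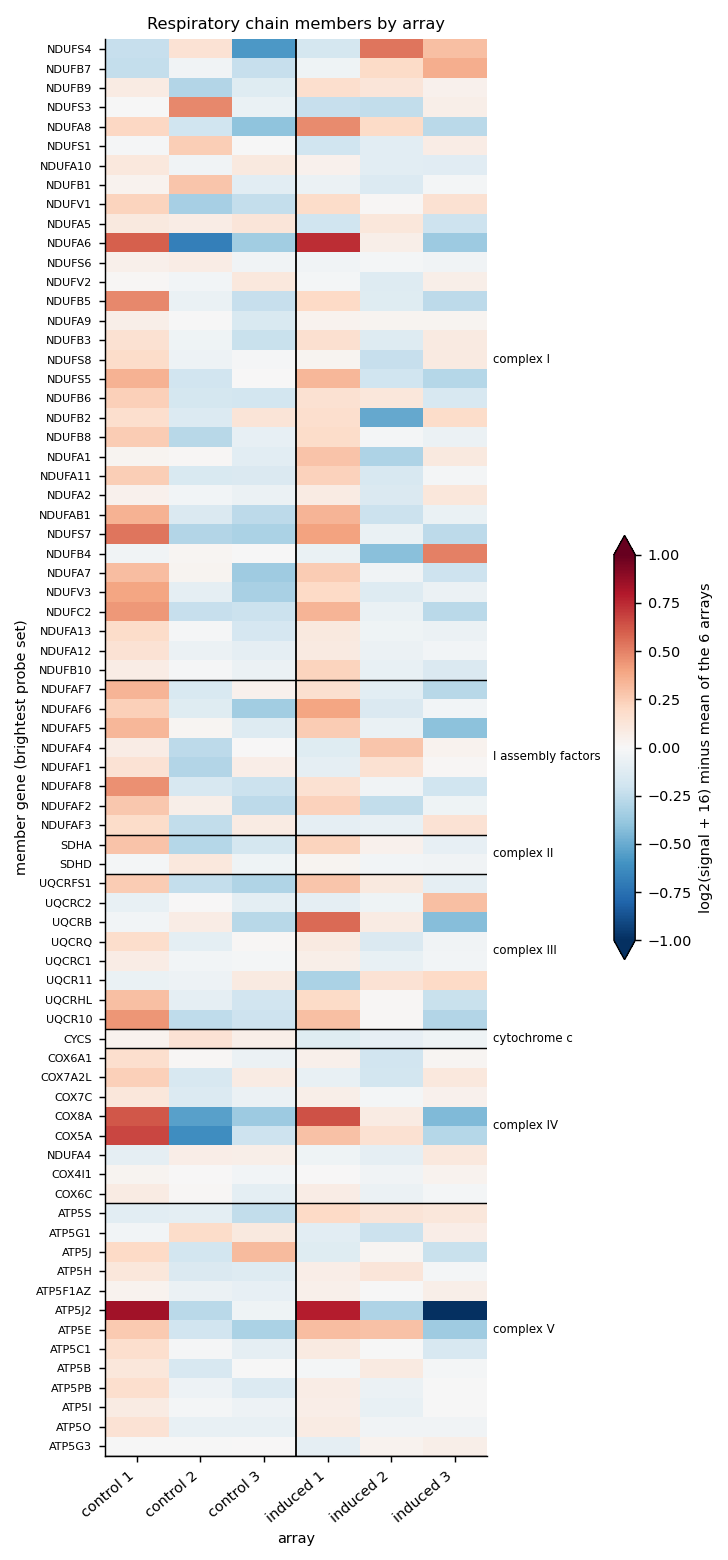
Each row is a respiratory chain gene and each column an array, and colour gives log2(signal + 16) minus the gene's mean over the 6 arrays, with colours ending at 1 in either direction. The columns control 1 and induced 1 are reddish in most rows, and 39 of the 73 genes have both above the other 4 arrays.

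The excess in repeat 1 was spread over the complexes. Both of its arrays stood above the others for 18 of 33 genes of complex I, 5 of 8 assembly factors, 1 of 2 genes of complex II, 5 of 8 of complex III, 5 of 8 of complex IV and 5 of 13 of complex V, and not for CYCS. The median difference, repeat 1 minus the other 4 arrays, was 0.17 over the 73 genes and 0.03 over all genes, and 58 of the 73 (79.5%) were positive, against 54.5% of all genes. It was largest for ATP5J2 (1.22), NDUFA6 (1.00), COX8A (0.94), COX5A (0.72) and NDUFS7 (0.70), and lowest for NDUFS4 (-0.30). NDUFA6, for example, read 9.41, 8.13 and 8.46 in the controls and 9.55, 8.87 and 8.45 in the induced samples. It was found in 23 of the 37 at or above the median level of the 73 and in 16 of the 36 below it. Mitochondrial ribosomal proteins had both arrays of repeat 1 on top in 24 of 66 genes (36.4%) with a median difference of 0.18, and cytosolic ribosomal proteins in 24 of 66 (36.4%) with a median of 0.05. Citrate cycle genes had it in 7 of 17 (41.2%), genes of mitochondrial import and shape in 4 of 28 (14.3%) and glycolysis genes in 5 of 21 (23.8%). The share over all genes was 14.5%. Ubiquinone-linked genes had it in 6 of 17 (35.3%), with a median difference of 0.15. Complex IV assembly factors and genes of mitochondrial DNA expression each had it in 5 of 19 (26.3%). For further complex I assembly factors it was 1 of 6 (16.7%), with a median of -0.07, and for those of complexes II, III and V 1 of 12 (8.33%). These shares were not tested, and repeat number and array brightness cannot be told apart. In repeats 2 and 3 alone, 0 of the 73 genes passed, against 4 of all 10083 tested there (0.0397%). The median difference of the 73 between the groups was then 0.04, with 45 above and 28 below.

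**Figure D3:**
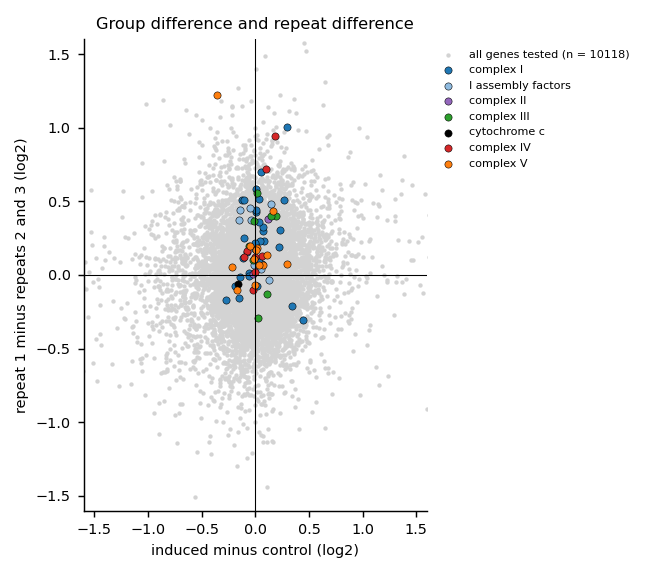
For each gene the difference between groups (horizontal, log2) is set against the difference between repeat 1 and the other repeats (vertical, log2), with all genes tested in grey and the respiratory chain genes in colour; axes end at 1.6, beyond which lie 60 genes, none of the respiratory chain. The coloured points form a narrow column around 0 on the horizontal axis, and 58 of 73 lie above 0 on the vertical axis.

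No gene of the neighbouring mitochondrial lists passed either. Of all 10118 genes tested only 0.376% did, so that 0 in such short lists says little about them. This holds for the lists in the following paragraphs too. Of the further assembly factors of complex I, those of complex IV, and those of complexes II, III and V, 0 of 6, 0 of 19 and 0 of 12 tested genes passed over all genes, with medians of 0.06, 0.02 and 0.02. The largest of these differences was that of COX17, the copper chaperone of complex IV, which read 8.07, 8.58 and 7.85 in the controls and 7.74, 7.50 and 7.16 in the induced samples. Its induced arrays all lay below its controls, and the difference was -0.70 (SE 0.234, limma adjusted p = 0.268). CMC2 and TTC19 had 0.24 and 0.19 in the same assembly lists, and SDHAF3, UQCC1 and LYRM7 0.20, 0.14 and 0.14. Genes of the citrate cycle and pyruvate entry had a median of -0.09, with 3 of 17 above the controls and 14 below and none called. MPC1L, the annotated name for the mitochondrial pyruvate carrier on the list, read 10.27, 10.30 and 10.23 against 10.06, 10.05 and 10.08, a difference of -0.21 (SE 0.0928, adjusted p = 0.427) with no overlap of the groups. PDHB differed by -0.11 and FH by 0.16.

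Regulators of mitochondrial biogenesis had a median of -0.12 over 9 tested genes, 4 above and 5 below, of which 0 passed. PPARA, a nuclear receptor of fatty acid use, had -0.52 (SE 0.235, limma adjusted p = 0.432), and PPARGC1A, a coactivator that drives transcription of respiratory chain genes, read 8.46, 8.17 and 8.11 against 7.88, 7.25 and 8.15, a difference of -0.49 (SE 0.238, adjusted p = 0.472). Induced 3 lay within the controls for PPARGC1A. ESRRG, an orphan nuclear receptor, had -0.39, and NRF1, a transcription factor of many respiratory chain genes, had -0.12. Genes that copy, transcribe and translate mitochondrial DNA had a median of -0.02 over 19 genes, led by POLG at 0.38, GFM2 at -0.27 and SLIRP at -0.39. Mitochondrial ribosomal proteins had a median of 0.06 over 66 genes, with 46 above and 20 below. MRPS23 was first among them with 0.68 (SE 0.162, adjusted p = 0.128), followed by MRPL24 at 0.33 and MRPL45 at 0.27, and none passed. Import, shape and carrier genes had a median of -0.0037 over 28 genes, led by TIMM13 at 0.37, TIMM17B at -0.39 and VDAC1 at -0.36. Antioxidant and related genes had 0.0061 over 9, led by GPX4 at 0.31, TXN2 at -0.20 and PRDX3 at 0.19, and ubiquinone-linked genes 0.0091 over 17, led by PDSS1 at -0.47, COQ10B at -0.54 and CHDH at -0.30, again with none called.

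Glycolysis genes ranged from -0.68 to 0.95. Of 21 tested, 0 passed, with a median of -0.05, but 3 (14.3%) had an unadjusted p under 0.05 in limma, near the share of all genes. The annotated SLC2A14, which the list names as the glucose transporter SLC2A3, read 7.70, 7.14 and 7.26 against 8.41, 8.32 and 8.22, a difference of 0.95 (SE 0.193, adjusted p = 0.0798) with no overlap. LDHA, which makes lactate, had -0.68 and the glucose transporter SLC2A1 -0.48. Cytosolic ribosomal proteins had a median of 0.0042 over 66 genes, a largest difference of 0.20 in RPL15 and none called. The 90th percentile of the size of the difference was 0.23 for the respiratory chain genes and 0.497 for all genes. No test compares these lists with each other.

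**Figure D4:**
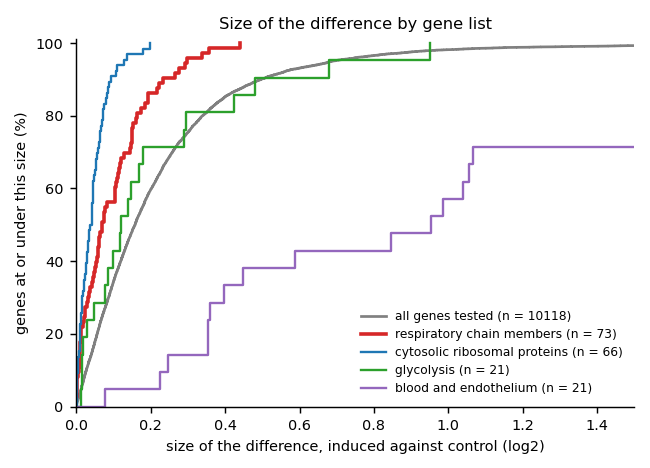
Cumulative share of genes (vertical, %) against the size of the difference between induced and control samples (horizontal, log2), for all genes tested and for 4 lists; the horizontal axis ends at 1.5. The curve of the 73 respiratory chain genes ends at 0.44, that of the cytosolic ribosomal proteins at 0.20 and that of glycolysis genes at 0.95.

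**Figure D5:**
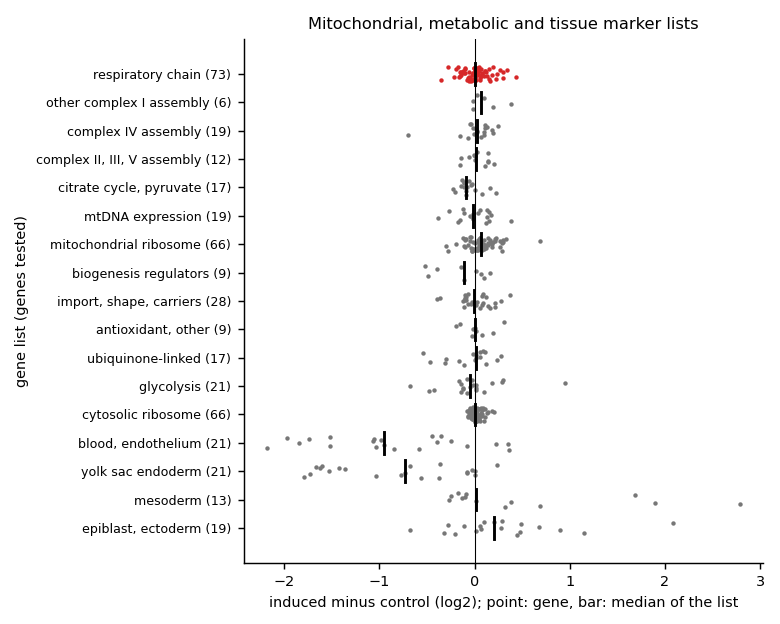
Difference between induced and control samples (log2) for each tested gene of the respiratory chain and of 16 further lists, with the number of genes in brackets and a bar at each list's median. The mitochondrial lists lie around 0, with medians from -0.12 to 0.06, and the blood and yolk sac endoderm lists lie lower, at -0.95 and -0.73.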

How the data were processed

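Total RNA of 6 chick samples (3 control, 3 induced) was labelled with biotin, from 5 µg each, for Affymetrix arrays (per the labels' protocols). The deposited table holds 1 linear intensity per probe set and array, made by the authors with MAS5 per the submitters' processing notes, whose version and scaling no source used here gives. It has 37690 probe sets in 6 columns, with 0 further sample columns. Arrays have no read depth, and weak signal limits precision: 46.9% to 63.7% of probe sets of an array were under 16 units, and of the 73 genes tested here 0 to 4.

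From these values log2(signal + 16) was computed and quantile normalized, which removes a shift shared by most genes and understates the change of weak ones. Probe sets with a mean under the 40th percentile (4.5) were left out, which kept 22614. The group difference was fitted in limma 3.58.1 under R 4.3.3 (lmFit, eBayes with trend, group only, two-sided, Benjamini-Hochberg over all probe sets or genes). The fit was tested on simulated data. An exact permutation test of 3 against 3 arrays cannot give a p under 0.1, so none was run. A gene is represented by its brightest kept probe set.

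Names come from GEO's platform annotation (27166 probe sets with 1 symbol, 177 with several and not used, 10347 with none), 26851 of them matched by Entrez number to RefSeq genes of the assembly GRCg7b. No coordinates or sequences are given. The members, lists and alternatives were chosen with earlier results of these data known. The text names, per complex, the 3 genes of lowest p, all of complexes II and III, CYCS and the isoform genes, and up to 3 genes of each list. NDUFS3, NDUFS7, NDUFA4, NDUFA6, NDUFAF6, NDUFAF7, COX5A, COX8A, ATP5F1AZ, ATP5B, ATP5C1, ATP5J2 and NRF1 were added after their values were seen. Both ribosomal lists were added by symbol after the data were seen.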

Additional observations from a re-analysis of the deposited data

How the results depend on the processing

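In all 19 other settings 0 respiratory chain genes passed, and in the 17 of these that refit the probe sets 0 of their probe sets passed, while the number of all genes that passed ran from 1 (without induced sample 2) to 359 (repeat number as a block without normalization between arrays). The count of all genes was 120 without induced sample 3, 142 with array weights, 21 without the variance trend, 9 without normalization and 4 in repeats 2 and 3 alone. The median difference of the 73 genes was -0.05 to 0.09 when single arrays were left out, -0.08 with median centring of the arrays and -0.10 without normalization, where 16 lay above and 57 below the controls, against -0.02 and -0.04 over all genes. It was 0.0102 for the 63 subunits and cytochrome c alone, an alternative chosen after seeing the data. CYCS had -0.26 with median centring and -0.28 without normalization, with or without the block. Of 413 values of 22 named genes, 43 had the opposite sign, none of them called. A shared repeat number went with alike deviations in repeat 1 only. Deviations from the group means correlated across probe sets at 0.553, -0.146 and 0.069 for repeats 1 to 3. Control 2 correlated best with induced 3 (0.402). The main fit leaves the repeat number out. With the replicate block 48 genes passed, again with 0 of the respiratory chain, and the lowest adjusted p among these was 0.323. Both arrays of repeat 1 stood above the rest for 38 or 39 genes under other filters and pseudocounts, against 13% to 15.6% of all genes. With 1 of the other arrays left out, fewer arrays had to be exceeded, and the count was 40 to 44, against 17.5% to 21.7%. It was 67 with median centring (91.8%, against 53.9% of all genes). Without probe sets that can match several transcripts it was 22 of 53 (41.5%, against 14.7%). These alternatives were chosen after seeing the data. The number of arrays limits the precision, and genes under 16 units have compressed differences.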
